A study of Rattus norvegicus with 6 samples.

Results

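Of 24746 loci in the deposited rat brain transcriptome, 462 joined several named genes under a single locus identifier. A locus here is the set of transcripts to which the assembler gave 1 identifier. A locus was kept where its transcripts carried at least 2 different reference gene names, leaving out provisional names (prefixes LOC, RGD, AABR, AC with a digit) and microRNA names, and 8336 loci carried a reference name of any kind. The choice used names and no comparison of the strains. The transcriptome itself was assembled from the merged reads of both strains, so which isoforms are listed depends on their coverage in these libraries. The 462 loci held 3603 of 64526 isoforms, and 460 of them were quantified, because both mitochondrial loci had no estimate. The libraries were made from polyA RNA of whole brain of naïve male rats of 2 inbred strains, 3 rats of BN-Lx/CubPrin (BNLx) and 3 of SHR/OlaIpcvPrin (SHR, the spontaneously hypertensive rat). Both groups were untreated, the ages were not given in the sources used here, and each library pooled every cell type of a brain, so that fewer cells of a type and less RNA per cell cannot be told apart. Each library held 11747048 to 41333079 expected counts. The question was whether neighbouring genes that share a locus differed between the strains by the same amount, which a value for the whole locus cannot show.

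Neighbouring genes on the same strand can be grouped into 1 locus when RNA polymerase reads through the end of the upstream gene, when a transcript of 1 gene covers a small RNA gene lying in its intron or exon, or when an assembler merges reads of adjacent genes. Readthrough transcripts often splice exons of both genes together, whereas small nucleolar RNAs usually sit inside a host gene and are cut out of its introns. A total over such a locus adds the transcripts of unrelated proteins, and a test of isoform usage over it mixes a change of 1 gene with an exchange of isoforms inside another.

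Promoter windows are shown for the 2 loci that held the called parts with the largest log2 changes, a class I histocompatibility pair and Chn1. They come from RefSeq (build GRCr8, 300 bases around the start, 5′ to 3′ on the gene's strand), and a window was found for 703 of 978 member names. RT1-A2 (chr20:4872621-4872920, plus strand) and RT1-A1 (chr20:4906959-4907258, plus strand) encode class I histocompatibility heavy chains and are neighbours in 1 locus. Both are printed because they are so alike, and Chn1, encoding the Rac-regulating protein chimaerin, is printed with both of its windows (chr3:79083901-79084200 and chr3:78960677-78960976, minus strand). Capitals mark 4 motifs that were searched on both strands. The first is the TATA box with the letters TATAAA. The GC box was searched with the letters GGGCGG. A further motif is the CCAAT box, searched by the letters in its name. The last is the palindromic kB site known as a target of NF-kB, which is the run of capitals next after the GC box in both RT1 windows.
RT1-A2: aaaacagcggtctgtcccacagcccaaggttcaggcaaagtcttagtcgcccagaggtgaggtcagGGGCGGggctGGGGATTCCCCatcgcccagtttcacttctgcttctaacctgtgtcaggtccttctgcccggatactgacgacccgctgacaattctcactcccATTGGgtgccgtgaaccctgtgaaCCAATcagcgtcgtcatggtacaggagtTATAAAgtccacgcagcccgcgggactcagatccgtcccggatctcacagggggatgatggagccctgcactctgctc
RT1-A1: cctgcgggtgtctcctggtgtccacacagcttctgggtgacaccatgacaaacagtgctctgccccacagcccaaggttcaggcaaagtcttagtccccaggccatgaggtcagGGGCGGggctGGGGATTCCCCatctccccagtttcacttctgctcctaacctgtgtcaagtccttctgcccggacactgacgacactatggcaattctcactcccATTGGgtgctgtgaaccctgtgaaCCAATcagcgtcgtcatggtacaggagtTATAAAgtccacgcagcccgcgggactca
Chn1, upstream window: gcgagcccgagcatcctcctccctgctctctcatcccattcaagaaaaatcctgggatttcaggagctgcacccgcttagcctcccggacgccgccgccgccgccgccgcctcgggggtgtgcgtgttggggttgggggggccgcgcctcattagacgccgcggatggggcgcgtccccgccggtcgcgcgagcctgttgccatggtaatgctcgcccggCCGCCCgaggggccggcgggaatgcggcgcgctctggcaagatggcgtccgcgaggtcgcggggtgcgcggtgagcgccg
Chn1, downstream window: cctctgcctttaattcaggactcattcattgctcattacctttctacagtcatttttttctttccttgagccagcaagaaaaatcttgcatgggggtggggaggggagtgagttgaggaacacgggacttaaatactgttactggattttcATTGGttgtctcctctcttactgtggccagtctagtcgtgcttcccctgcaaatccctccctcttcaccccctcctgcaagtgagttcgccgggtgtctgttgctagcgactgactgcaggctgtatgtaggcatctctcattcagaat
In the RT1 windows 234 of 252 aligned bases were identical (92.9%), and each held 1 TATA box, 1 GC box, 2 CCAAT boxes and 1 kB site. The upstream Chn1 window had a GC content of 72.7% and 43 CG dinucleotides, and the downstream window had 48.3% and 5, with the windows 123224 bases apart. Over all 33469 windows the shares holding a motif were 14.2% for the TATA box, 33.1% for the GC box, 37.5% for the CCAAT box and 0.0627% for the kB site. Among the 754 windows of member genes they were 7.82%, 61.8%, 41.4% and 0.398%. The kB site was found in 21 windows, 8 of them among 42 windows of RT1 genes. Median GC content was 60.0% for member windows and 51.7% for all windows.

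Most of the loci were pairs. There were 381 loci with 2 names, 61 with 3, 15 with 4, 2 with 5, 1 with 6, and the mitochondrial loci carried 9 and 28. They were longer than the other 7874 named loci, with a median span of 49588 against 15345 bases, and they held a median of 6 isoforms against 2. A small RNA name was present in 107 loci, and 368 loci still had 2 or more names without the small RNAs. Among 561 adjacent pairs outside the mitochondrial genome, 412 pairs of longer genes lay apart from each other with a median gap of 7892.5 bases. Of these the closest were Card9 and Dnlz (107 bases) and the farthest Prdm2 and Kazn (1028173 bases). Of these 412 gaps, 56 were within 1 kb and 31 exceeded 100 kb. Small RNA names were mostly nested inside a longer gene (84 pairs).

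The isoforms listed for a locus often did not show what joined it. An unnamed isoform sharing at least 25 exonic bases with each of 2 or more genes, called a joining isoform here, was found in 84 loci (208 isoforms). A named isoform reached over a neighbour in a further 26 loci, a chain of overlapping exons linked 15, and overlapping spans alone linked 48, of which 46 carried a small RNA name. In the remaining 289 loci the names shared an identifier without any listed isoform that linked them.

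**Figure D1:**
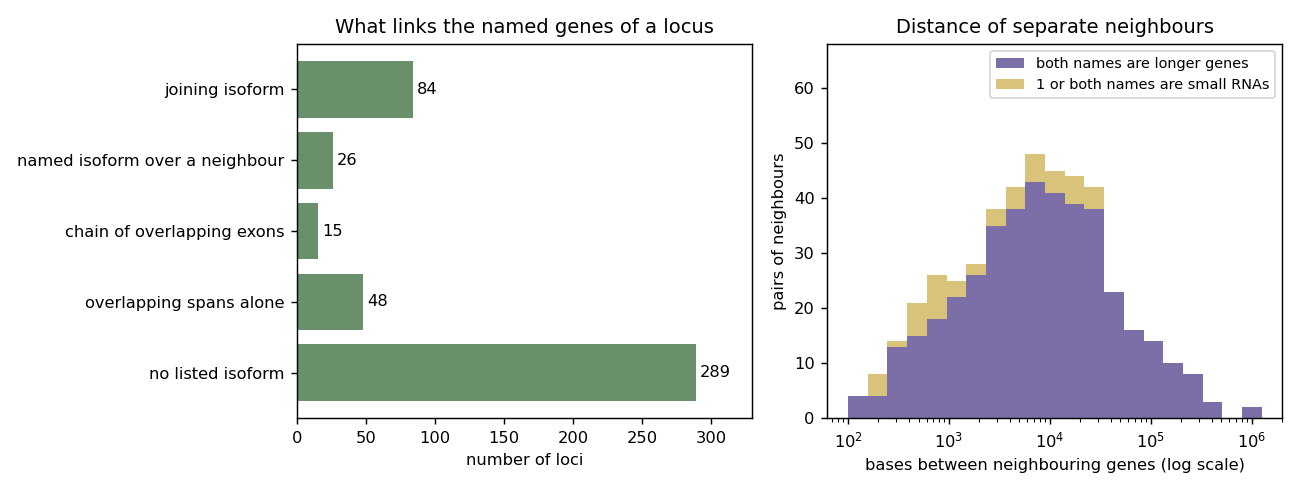
Left, number of loci by the strongest link between their named genes, as bars of 15 to 289 loci. Right, number of adjacent pairs that lie apart, against the distance between them in bases on a log axis, with pairs of longer genes and pairs with a small RNA name stacked. Most loci had no linking isoform, and the gaps of longer genes centre near the median of 7892.5 bases.

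Each locus was split into parts, namely each named gene, the joining isoforms, the unnamed isoforms near 1 named gene and the remaining isoforms. Isoforms with a counted name took 69.3% ± 0.609 of the counts of these loci in BNLx and 67.9% ± 0.963 in SHR (SD, n = 3). Unnamed isoforms near 1 gene took 20.3% ± 0.618 and 22.5% ± 1.22. The strains overlapped for the counted names and not for the unnamed isoforms, where the BNLx libraries lay between 19.9% and 21.0% and the SHR libraries between 21.1% and 23.2%. These shares were not tested. Joining isoforms took only 2.35% ± 0.198 and 2.40% ± 0.0785, a difference smaller than the spread among the BNLx libraries. The 460 loci together held 6.997% ± 0.157 of all counts in BNLx and 7.08% ± 0.136 in SHR.

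In several loci 1 library of each strain, replicate 3 of BNLx and replicate 1 of SHR, was far from the other 2 of its strain. Ddn, encoding the postsynaptic protein dendrin, had 732 and 723 CPM (counts scaled to library size) in BNLx replicates 1 and 2 and 18.6 in replicate 3. Gng7, a G protein gamma subunit, had 129 CPM in SHR replicate 1 and 4.78 and 1.82 in the other SHR libraries. Parts were therefore also tested without both of these libraries. At that setting 18.1% of all parts of the series were called, so a call gained there stands beside a much higher background. Both libraries were picked from these same values, and their removal narrows the spread within a strain. A call gained or kept there is therefore not separate support. Summed TPM (levels scaled to transcript length and library size) of the brain markers that carried a reference name were 2745 to 4551 in BNLx and 2078 to 3287 in SHR for 3 of 7 neuronal markers (Snap25, Syt1, Gad1), and 256 to 303 and 383 to 427 for 1 of 4 astrocyte markers (Slc1a3). They were 2504 to 5558 and 1566 to 3256 for 3 of 4 oligodendrocyte markers, and 86.8 to 101 and 97.8 to 122 for 3 of 4 microglial markers. No endothelial, blood or choroid plexus marker carried a name, so their levels were not analysed here, and the part of cell makeup in any result was not tested.

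A total of 12 parts were called among 1189 that passed the filter, of 1629 in all, at an adjusted p of 0.05 (edgeR quasi-likelihood test, two-sided, Benjamini-Hochberg over all 17613 parts of the series). Of these 12, 6 were higher and 6 lower in SHR. The background over all loci was 1.13% of parts called, and 1.01% of the parts of joined loci were called, so their share was near the background. The median log2 change was -0.03 over the parts of joined loci and -0.00 over all parts. Named genes accounted for 5 of the 12 (1 higher and 4 lower of 752 tested), joining isoforms for 3 of 78 tested, and unnamed isoforms near 1 gene for 4 of 296. None of 50 parts of remaining isoforms and none of 13 provisional names was called by edgeR, with 5 and 1 of them at an unadjusted p under 0.05. Over all loci 1766 of 17613 tested parts had an unadjusted p under 0.05, so these counts are near the background.

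**Figure D2:**
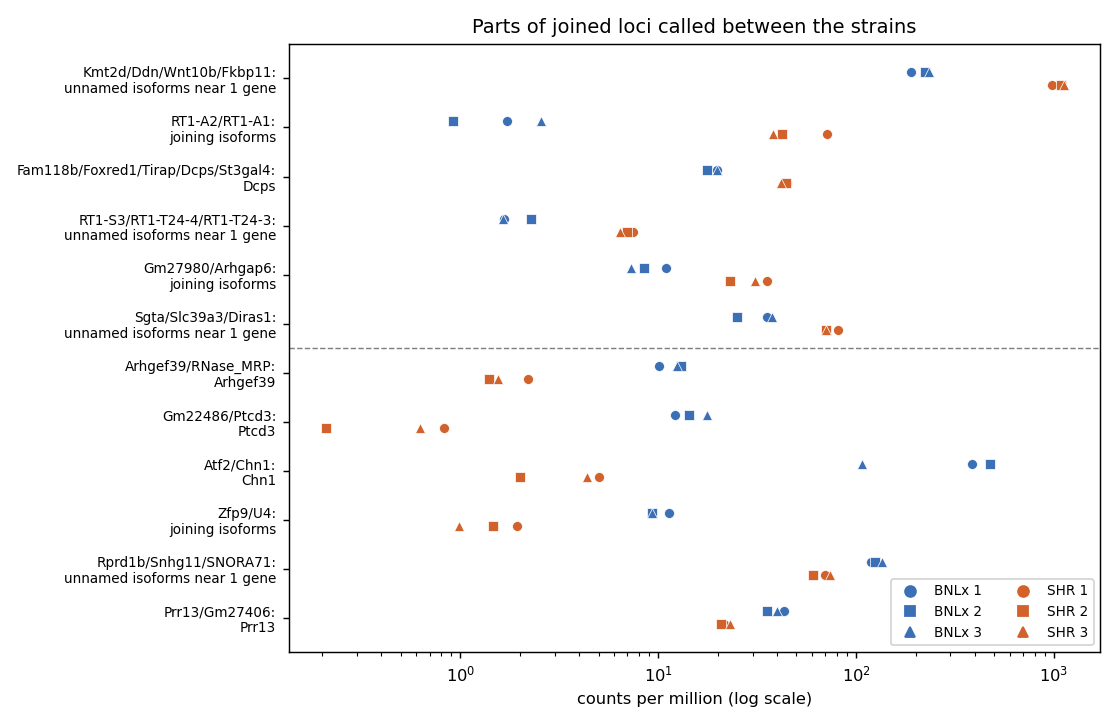
Counts scaled to library size (CPM) on a log axis in each of the 6 libraries for the 12 called parts, as points by strain with BNLx and SHR side by side. In all 12 parts no SHR library overlapped a BNLx library. Parts had to be called and without overlap to be drawn, so the gap is not separate support.

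The lowest p among the parts lay beside Fkbp11, encoding a peptidyl-prolyl isomerase of the endoplasmic reticulum, in a locus with the histone methyltransferase Kmt2d, dendrin and the Wnt ligand Wnt10b (chr7:140369670-140548468, rn6, minus strand). Unnamed isoforms near 1 gene had 189.8, 224 and 234 CPM in the BNLx libraries and 979, 1090 and 1119 in the SHR libraries. Every SHR library lay far above every BNLx library, and the log2 change was 2.30 ± 0.148 (SE; adjusted p = 0.00424, edgeR). The named Fkbp11 isoforms had 1260.1, 1325 and 495 CPM in BNLx and 491, 570 and 548 in SHR, so that BNLx replicate 3 sat with the SHR libraries. Their log2 change of -0.94 ± 0.372 did not pass (adjusted p = 0.480), but without BNLx replicate 3 and SHR replicate 1 it was -1.21 and was called (adjusted p = 0.00301). An exchange between 2 isoforms with the same ends made up most of the unnamed signal. The unnamed isoform that lacks a block of 45 bases (chr7:140414461-140414505, rn6) had 9.20, 4.37 and 6.74 CPM in BNLx and 801, 795 and 822 in SHR, a log2 change of 6.89 ± 0.346 (adjusted p = 0.00882). The named isoform that keeps the block had 1259, 1292 and 490 CPM in BNLx and 475, 530 and 509 in SHR, with overlap (-1.01, adjusted p = 0.538). With the unnamed isoforms added, Fkbp11 changed by 0.36 ± 0.364 (adjusted p = 0.788), and its low BNLx replicate 3 (506 CPM against 1276 and 1336) remained. Of the called parts, only this one kept its call without each of the 6 libraries in turn (adjusted p from 0.0111 to 0.0402).

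Slc39a3, a zinc transporter, showed the same form of exchange beside the cochaperone gene Sgta and the small GTPase gene Diras1 (chr7:11521998-11562098, plus strand). The named Slc39a3 isoforms had 34.7, 34.7 and 29.8 CPM in BNLx, and in SHR they had 0, 0 and 0.715. The difference of -7.25 ± 1.22 on the log2 scale missed the threshold (adjusted p = 0.0672), and without both libraries that stood apart it was -6.52 and called (adjusted p = 0.0117). The unnamed isoform lacking 102 bases (chr7:11552153-11552254) was at 0 in all 3 BNLx libraries and had 40.5, 35.4 and 32.1 CPM in SHR, at least 182-fold higher against a floor of 3 counts per library (adjusted p = 0.0133). The unnamed isoforms near Sgta or Slc39a3 together had 35.6, 25.01 and 37.7 CPM in BNLx and 81.5, 70.5 and 70.9 in SHR, without overlap (1.18 ± 0.182, adjusted p = 0.0488). Slc39a3 with its unnamed isoforms had 34.7, 34.7 and 29.7 CPM in BNLx and 39.3, 35.3 and 32.7 in SHR, so that the groups overlapped (0.12 ± 0.125, adjusted p = 0.808). Diras1 (-0.34 ± 0.214) and Sgta (-0.20 ± 0.130) did not pass with all libraries and were called without both (-0.35, adjusted p = 0.0280, and -0.34, adjusted p = 0.0312). The call on the unnamed part was lost without each of the 6 libraries in turn (adjusted p from 0.0643 to 0.209), and with no filter on low counts (0.0513). With original isoforms alone its log2 change was 5.78 (adjusted p = 0.0642).

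Ptcd3, encoding a pentatricopeptide protein of the mitochondrial ribosome, hosts the small RNA name Gm22486 (chr4:99795570-99822992, minus strand). Its named isoforms had 12.1, 14.4 and 17.6 CPM in BNLx and 0.826, 0.209 and 0.628 in SHR. The strains did not overlap, and the log2 change was -4.67 ± 0.521 (adjusted p = 0.0192). The named isoform that carries an extra 108 bases (chr4:99797584-99797691) had 11.2, 12.1 and 17.9 CPM in BNLx and 0 in each SHR library, at least 117-fold lower (adjusted p = 0.0293). The unnamed isoform without those bases had 25.6, 18.2 and 21.8 CPM in BNLx and 42.5, 30.4 and 32.9 in SHR. With unnamed isoforms added, Ptcd3 had 41.1, 37.5 and 43.7 CPM in BNLx and 45.7, 37.5 and 38.7 in SHR, and the change was -0.00 ± 0.124 (adjusted p = 0.996). Gm22486 itself changed by -0.35 ± 0.286, and reads of a nested small RNA and its host cannot be told apart. The named Ptcd3 part lost its call without BNLx replicate 1, BNLx replicate 2 or SHR replicate 3, with an adjusted p of up to 0.117.

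Chn1 isoforms from different starts differed between the strains, although the test over all isoforms of Chn1 (adjusted p = 0.115) and that over all isoforms of its locus (adjusted p = 0.142) did not pass. Chn1 shares a locus (chr3:60513077-60795951, rn6, minus strand) with Atf2, a transcription factor that binds cyclic AMP response elements and lies 109210 bases upstream. The named Chn1 isoform had 387, 475 and 107 CPM in the BNLx libraries and 5.04, 2.00 and 4.37 in the SHR libraries. All SHR values lay far below the lowest BNLx value, that of replicate 3, and the log2 change was -6.39 ± 0.735 (adjusted p = 0.0199). The isoforms of Chn1 began at 3 places, of which the middle one lay 56497 bases and the inner one 112280 bases downstream of the outermost. The middle start took 43.9%, 44.2% and 43.5% of the Chn1 counts of these starts in BNLx and 0.986%, 0.246% and 0.512% in SHR. The outermost start took 0.823%, 1.04% and 3.42% in BNLx and 13.3%, 11.3% and 8.19% in SHR. The inner start took the rest, 53.0% to 55.3% in BNLx and 85.7% to 91.3% in SHR, and the groups overlapped at none of the starts. These shares were not tested. BNLx replicate 3 had less Chn1 RNA than the other BNLx libraries and a higher share from the outermost start, still below each SHR share. An unnamed isoform from the outermost start had 7.40, 11.1 and 4.80 CPM in BNLx and 69.8, 77.1 and 62.1 in SHR (3.17 ± 0.338, adjusted p = 0.0332). Summed over named and unnamed isoforms, Chn1 changed by -0.02 ± 0.530 (adjusted p = 0.996), with 882, 1073 and 245.5 CPM in BNLx and 510, 811 and 855 in SHR. Atf2 changed by 0.11 ± 0.130. The named Chn1 part kept its call without BNLx replicate 3 (adjusted p = 0.0111) and lost it without any of the other 5 libraries (up to 0.124). The promoter windows of GRCr8 were not placed on these rn6 starts.

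**Figure D3:**
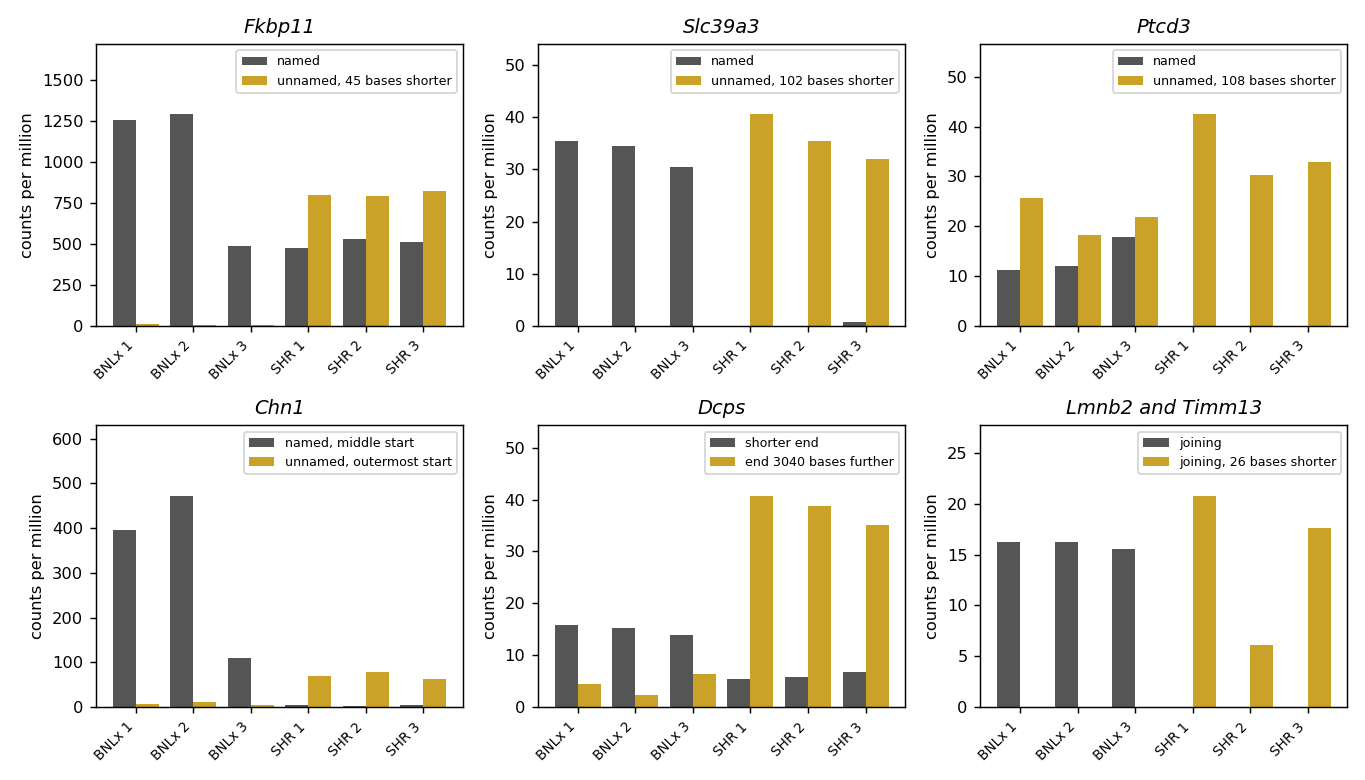
Counts scaled to library size (CPM) from 0 in each of the 6 libraries for pairs of isoforms of Fkbp11, Slc39a3, Ptcd3, Chn1, Dcps and of the isoforms joining Lmnb2 and Timm13, as 2 bars for each library. In each panel 1 of the pair has a lower and the other a higher mean in SHR, although the named Fkbp11 isoform overlaps between strains. For Slc39a3, Ptcd3 and the joining isoforms 1 of the pair is at or near 0 in a strain. Pairs were picked from called isoforms, and that of Chn1 for its opposite directions, so the contrast is not separate support. The partners in Fkbp11, Slc39a3 and Ptcd3 did not pass (edgeR, adjusted p = 0.538, 0.206 and 0.409).

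Dcps, the scavenger enzyme that removes caps from decayed mRNA, shares a locus with Fam118b, Foxred1, Tirap and St3gal4 (chr8:36264750-36467627, rn6, minus strand). It had 19.8, 17.7 and 19.8 CPM in BNLx and 44.9, 44.5 and 41.8 in SHR. The strains lay apart with little spread within them, and the log2 change in counts was 1.196 ± 0.116 (adjusted p = 0.0131). In TPM, which divides by length, the level was 30.7, 30.8 and 31.5 in BNLx and 30.5, 33.9 and 32.9 in SHR, and the strains overlapped. The isoform with the shorter end, of 1209 bases, had 15.8, 15.3 and 13.8 CPM in BNLx and 5.40, 5.84 and 6.81 in SHR (-1.31 ± 0.197, adjusted p = 0.0777). The aptardi isoform (aptardi is a tool that adds transcript ends predicted from DNA sequence and read coverage) ends 3040 bases further along (chr8:36318953-36321992). It had 4.41, 2.33 and 6.44 CPM in BNLx and 40.8, 38.8 and 35.2 in SHR (3.11 ± 0.392, adjusted p = 0.0484). Counted with the original isoforms alone, Dcps changed by -1.31 (adjusted p = 0.0351), the opposite direction. Dcps was also first among named genes in the test of its own isoforms (adjusted p = 0.000494). The neighbour 7181 bases downstream, St3gal4, a sialyltransferase, had 28.8, 26.0 and 34.2 CPM in BNLx and 28.6, 19.8 and 18.1 in SHR (-0.42 ± 0.218, adjusted p = 0.606), with overlap. Fam118b (0.02 ± 0.177) and Foxred1 (-0.47 ± 0.299), an assembly factor of respiratory complex I, did not pass either. The Dcps call was lost without BNLx replicate 1 or 2 or SHR replicate 2 or 3 (adjusted p up to 0.0973).

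Among the parts called higher in SHR, the largest log2 change was that of an isoform joining class I histocompatibility genes. RT1-A2 and RT1-A1 lie 35908 bases apart (chr20:5351972-5418019, rn6, plus strand). The isoform that joins them, which has 8 exons and is 1589 bases long, had 1.71, 0.921 and 2.55 CPM in BNLx and 71.3, 42.2 and 38.1 in SHR. It was low in all BNLx and high in all SHR libraries, with a log2 change of 4.85 ± 0.438 (adjusted p = 0.0103). Its share of the locus was 2.32% ± 0.921 in BNLx and 66.4% ± 4.002 in SHR (SD, n = 3). RT1-A2 had 22.9, 15.6 and 21.8 CPM in BNLx and 7.21, 3.85 and 3.65 in SHR, without overlap but above the threshold (-2.03 ± 0.330, adjusted p = 0.0603). RT1-A1 had 58.0, 43.2 and 52.0 CPM in BNLx and 33.9, 13.0 and 15.5 in SHR (-1.29 ± 0.382, adjusted p = 0.310). Without both libraries that stood apart, RT1-A2 (-2.37, adjusted p = 0.00870) and RT1-A1 (-1.83, adjusted p = 0.00911) were called lower. The total of the locus changed by 0.09 ± 0.297, with 59.6 to 82.4 CPM in BNLx and 57.9 to 114 in SHR, so the parts differed while the total overlapped. RT1 genes are near copies of each other, as the printed windows show for their starts, and reads shared among them are divided by estimation, so each of these levels is uncertain. The genomes of both strains were made from rn6. Whether reads of RT1 genes were placed equally well in both strains was not tested, so a difference in placement and one in RNA cannot be told apart. The locus of Vps52 crosses it on the opposite strand (chr20:5364146-5441706), and the reads of both cannot be told apart where they overlap. The call on the joining isoform was lost without BNLx replicate 1 (adjusted p = 0.0782), SHR replicate 2 (0.0627) or SHR replicate 3 (0.0504).

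A further class I locus joined RT1-S3, RT1-T24-4 and RT1-T24-3 (chr20:3175332-3283817, plus strand). Its unnamed isoforms near 1 gene had 1.66, 2.27 and 1.65 CPM in BNLx and 7.51, 6.99 and 6.45 in SHR, and the strains did not overlap (1.92 ± 0.245, adjusted p = 0.0258). Most of it was 1 isoform near RT1-T24-3, with 1.40, 1.24 and 1.28 CPM in BNLx and 7.60, 6.81 and 5.84 in SHR. Named RT1-S3 (-0.72 ± 0.169, adjusted p = 0.184) and RT1-T24-4 (-0.72 ± 0.265, adjusted p = 0.435) had negative changes and did not pass with all libraries, and RT1-S3 was called without both that stood apart (-0.84, adjusted p = 0.0281). With its unnamed isoforms RT1-T24-3 changed by 1.83 ± 0.226 (adjusted p = 0.0242). The call on the unnamed part was lost without each library in turn (0.0584 to 0.151), and these genes share reads in the same way.

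Joining isoforms also differed in 2 loci that hold a small RNA. Arhgap6, encoding a GTPase activating protein, encloses the small RNA name Gm27980 (chrX:26315878-26581482, minus strand). The isoforms covering both had 10.9, 8.46 and 7.33 CPM in BNLx and 35.4, 23.1 and 30.98 in SHR. No library of 1 strain reached the range of the other (1.74 ± 0.234, adjusted p = 0.0298). They held 89.8% ± 7.73 of the locus over all 6 libraries, and 3 isoforms made them up, each with a higher mean in SHR. Zfp9, a zinc finger gene lies beside a U4 spliceosomal RNA name (chr4:150515618-150533597, minus strand). The isoform reaching over both had 11.4, 9.29 and 9.30 CPM in BNLx and 1.95, 1.46 and 0.983 in SHR. The log2 change was -2.76 ± 0.318 without overlap (adjusted p = 0.0199), and with no filter on low counts the test of parts of this locus gave 0.206. Its share of the locus was 75.2% ± 3.98 in BNLx and 18.4% ± 9.87 in SHR. The unnamed isoform near Zfp9 alone had 2.96, 3.08 and 3.72 CPM in BNLx and 4.64, 8.53 and 6.98 in SHR (1.05 ± 0.294, adjusted p = 0.285). The Arhgap6 call was lost without each library in turn (0.0660 to 0.158), and the Zfp9 call without BNLx replicate 1 or 2 or SHR replicate 2 or 3 (up to 0.128).

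**Figure D4:**
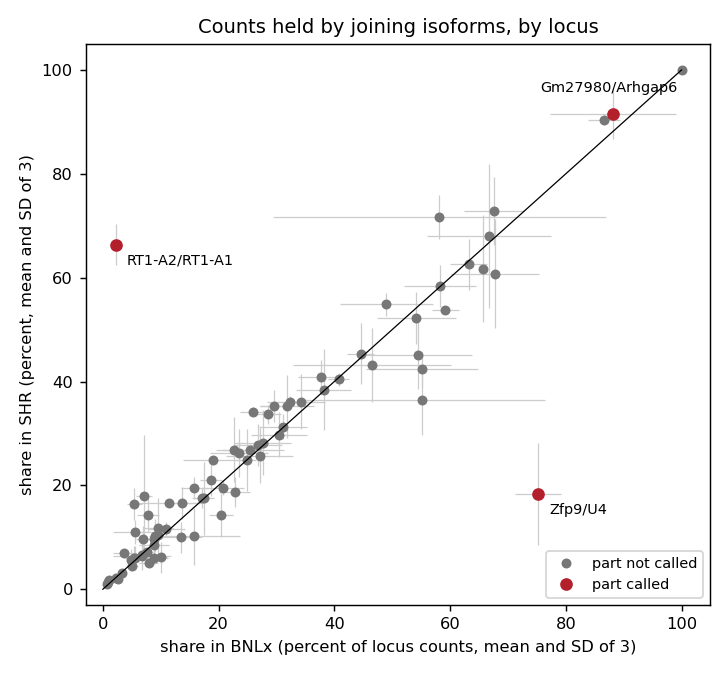
Share of locus counts held by joining isoforms in SHR against BNLx, in percent, as mean and SD of 3 libraries for each plotted locus with a joining part, with the line of equal shares. RT1-A2/RT1-A1 (2.32% against 66.4%) and Zfp9/U4 (75.2% against 18.4%) lie far from the line, and Gm27980/Arhgap6, the remaining called part, lies on it.

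Other joining isoforms were abundant without a call. The highest shares among loci with at least 500 counts, after Arhgap6, were 88.5% ± 2.74 for Atrip and Trex1, 67.4% ± 11.1 for Ss18l1, U1 and Mtg2, 64.9% ± 19.8 for Hdhd5 and Tmem121b, 64.3% ± 9.02 for Isg20l2 and Crabp2, and 63.7% ± 6.88 for Palm2 and Akap2 (SD over 6 libraries). Atrip, a partner of the checkpoint kinase ATR, and the DNA exonuclease Trex1 are known to share transcripts. Their joining isoforms had 35.9, 40.3 and 28.5 CPM in BNLx and 38.5, 40.6 and 40.6 in SHR (0.19 ± 0.153, adjusted p = 0.739). Those of Palm2 and Akap2, a membrane protein and an anchor of protein kinase A, had 120, 127 and 247 CPM in BNLx and 91.6, 134 and 138 in SHR (-0.44 ± 0.328, adjusted p = 0.720). Those of Hdhd5 and Tmem121b had 79.3, 85.6 and 7.13 CPM in BNLx and 41.4, 83.2 and 79.5 in SHR, where BNLx replicate 3 stood apart. By p the next joining parts after the called ones were those with Poglut2, an endoplasmic reticulum glucosyltransferase (1.42 ± 0.330, adjusted p = 0.175), with Nop58, a core protein of box C/D small nucleolar particles (0.46 ± 0.126, adjusted p = 0.279), and with Ptms, Cd4, Gpr162 and P3h3 (0.90 ± 0.291, adjusted p = 0.365). In the Poglut2 locus the joining part had 1.25, 2.11 and 2.32 CPM in BNLx and 4.30, 5.96 and 4.77 in SHR, without overlap.

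Of the other called parts, 3 were lower in SHR. Arhgef39, a guanine nucleotide exchange factor, lies 295 bases from the RNA of RNase MRP (chr5:58994682-59001800, minus strand). Its named isoform had 10.1, 13.1 and 12.4 CPM in BNLx and 2.20, 1.39 and 1.56 in SHR (-2.78 ± 0.269, adjusted p = 0.0131). With the unnamed isoforms it had 20.3, 22.7 and 25.4 CPM in BNLx and 19.8, 14.3 and 17.6 in SHR, still without overlap but no longer called (-0.40 ± 0.170, adjusted p = 0.499). Prr13, a proline-rich protein gene joined to the small RNA name Gm27406 (chr7:144064931-144103909, plus strand), had 43.1, 35.5 and 39.9 CPM in BNLx and 21.4, 20.8 and 23.1 in SHR. The strains did not overlap (-0.86 ± 0.128, adjusted p = 0.0433). Unnamed isoforms near 1 gene in the locus of Rprd1b, the noncoding RNA Snhg11 and SNORA71 (chr3:154507035-154872440, plus strand) had 119, 125 and 135 CPM in BNLx and 70.0, 60.9 and 73.9 in SHR (-0.89 ± 0.123, adjusted p = 0.0329). Snhg11 including them changed by -0.46 ± 0.145 (adjusted p = 0.333). The Prr13 and Snhg11 calls were lost without each library in turn (up to 0.252 and 0.174), and the Arhgef39 call without BNLx replicate 1 or 2 or SHR replicate 2 or 3 (up to 0.0920). With original isoforms alone Prr13 changed by -0.38 (adjusted p = 0.527), and with no filter its adjusted p was 0.0616.

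When each unnamed isoform near 1 gene was counted with that gene, 9 of 964 parts were called, 5 higher and 4 lower in SHR, against 1.1% of all parts counted in this way. Fkbp11, Slc39a3, Ptcd3, Chn1, Arhgef39 and Snhg11 were then not called. The genes called after adding were Dcps, Prr13, RT1-T24-3, Nat8f2 and Agbl4. Libraries were not left out in turn in this setting, and Nat8f2 and Agbl4 lay just under the threshold. Nat8f2, an N-acetyltransferase gene next to its relative Nat8f4 (chr4:117749538-117761961, minus strand), had 0.312, 0.0454 and 0.408 CPM in BNLx and 2.21, 2.11 and 2.81 in SHR (3.10 ± 0.463, adjusted p = 0.0462). Nat8f2 met the count filter through SHR alone, where it was higher. Nat8f4 had 18.3, 19.3 and 31.3 CPM in BNLx and 17.4, 15.6 and 13.0 in SHR (-0.58 ± 0.249, adjusted p = 0.503), and reads may be shared between these near copies. Agbl4, a carboxypeptidase that trims glutamate chains of tubulin, had 71.3, 55.8 and 79.5 CPM in BNLx and 19.2, 27.9 and 30.1 in SHR (-1.42 ± 0.219, adjusted p = 0.0494). Counted as their own part, the unnamed isoforms near 1 gene of its locus were not called (-1.29, adjusted p = 0.0687). The neighbours of Agbl4, Bend5 (-0.06 ± 0.280) and Spata6 (-0.32 ± 0.488), did not pass.

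Whether the parts of a locus changed by different amounts was tested directly. They did in 16 of 392 joined loci (4.08%), against a background of 2.9% of all loci with several parts (edgeR diffSpliceDGE, adjusted p of 0.05). Without the loci joined through small RNA names it was 10 of 343 (2.92%), near that background. The lowest p belonged to RT1-A2 and RT1-A1 (adjusted p = 3.00e-05), followed by Gm22486 and Ptcd3 (3.28e-05), Sgta, Slc39a3 and Diras1 (6.07e-05), the RT1-S3 locus (6.07e-05), Atf2 and Chn1 (6.62e-05), Arhgef39 (0.000259), Zfp9 and U4 (0.000575), Zfr2 and Matk (0.000761), Zfp212 and Zfp956 (0.000855) and the Dcps locus (0.00597). With unnamed isoforms added to their gene, 10 of 357 joined loci were called (2.80%), near the 2.56% of all loci counted in this way, and Ptcd3 (0.658), Slc39a3 (0.551) and Chn1 (0.939) were not among them, while the RT1-A pair (2.63e-05) and the RT1-S3 locus (3.05e-05) were. The call on the Dcps locus was lost without BNLx replicate 1 (0.0667), SHR replicate 2 (0.132) or SHR replicate 3 (0.0743), and the other 9 kept theirs without each library in turn.

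Zfr2 and Matk differed as neighbours although neither passed alone. Zfr2, a zinc finger RNA-binding protein gene, had 8.77, 4.14 and 23.5 CPM in BNLx and 0 in all 3 SHR libraries, at least 104-fold lower (adjusted p = 0.0804). Matk, a kinase that acts on Src family kinases, lies 5199 bases downstream (chr7:11325254-11353713, minus strand) and had 88.0, 92.0 and 55.8 CPM in BNLx and 84.7, 79.5 and 89.6 in SHR (0.11 ± 0.205, adjusted p = 0.900). Their joining isoforms had 106, 118 and 52.5 CPM in BNLx and 93.3, 104 and 112 in SHR (0.17 ± 0.300, adjusted p = 0.895). The difference between the parts was lost when aptardi isoforms were left out (adjusted p = 0.990). Zfp212 and Zfp956, are related zinc finger genes. Their remaining isoforms had 4.04, 4.81 and 5.80 CPM in BNLx and 0.950, 1.19 and 1.56 in SHR (-1.99 ± 0.313, adjusted p = 0.0535), and named Zfp212 changed by 0.18 ± 0.155. With unnamed isoforms added, Zfp956 had 24.97, 25.8 and 24.5 CPM in BNLx and 15.98, 16.5 and 17.2 in SHR, without overlap (-0.60 ± 0.111, adjusted p = 0.0916), and Zfp212 changed by -0.05 ± 0.126. The difference between the parts was lost with a filter of 10 counts (adjusted p = 0.430) or no filter (0.418).

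Neighbours in a locus were often expressed at unlike levels. Among 342 pairs that lay apart and were tested on both sides, the downstream gene had the higher TPM in 175 and the upstream gene in 167, with a median ratio of 1.08. The levels were over 10-fold apart in 66 pairs. The median absolute difference between the log2 changes of neighbours was 0.25, and in 19 pairs it exceeded 1. These pairs included Nat8f4 and Nat8f2, RT1-T24-4 and RT1-T24-3, and Zfr2 and Matk.

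**Figure D5:**
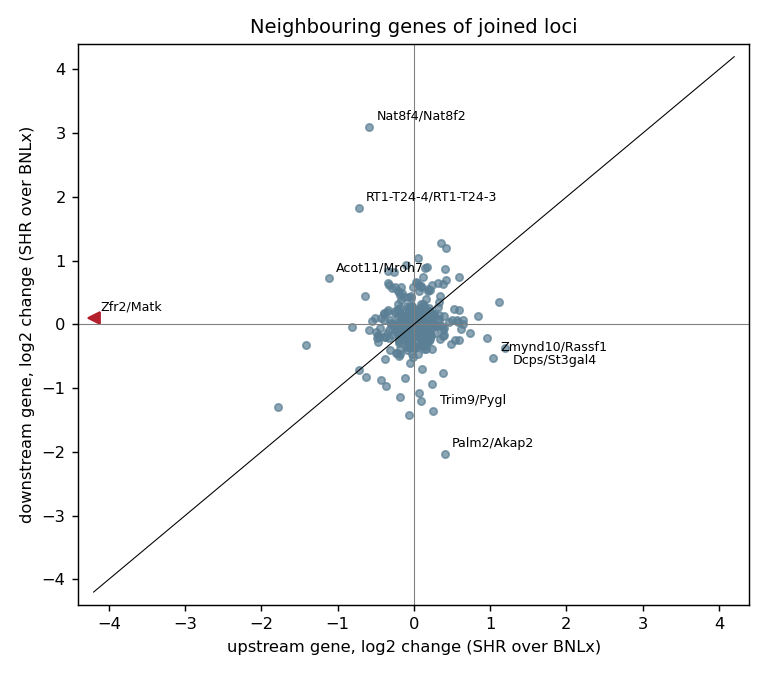
Log2 change (SHR over BNLx) of the downstream gene against that of the upstream gene for the 342 pairs, each point a pair, with the line of equal change. Most pairs sit near 0 on both axes, Nat8f2 (3.10) and RT1-T24-3 (1.83) stand above their neighbours, and the pair of Zfr2 and Matk, drawn as a red mark at the edge, lies beyond the axis.

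Usage of isoforms over the whole locus differed in 25 of 413 joined loci (6.05%), against a background of 4.37% of loci. The parts differed in 11 of these 25 and not in the other 14. With unnamed isoforms added, the genes differed in 7, isoforms of a single gene differed among themselves in 16, of which 15 were in loci whose genes were not called as differing, and neither was called in 3. Ormdl1, a regulator of sphingolipid synthesis, and Osgepl1, a mitochondrial tRNA-modifying enzyme, were among the loci whose parts were not called as differing (adjusted p = 0.123). Within Osgepl1 an unnamed aptardi isoform was at 0 in BNLx and had 3.63, 1.93 and 3.84 CPM in SHR (at least 15.8-fold higher, adjusted p = 0.108), while Osgepl1 as a whole changed by 0.07 ± 0.128 and Ormdl1 by 0.56 ± 0.180 (adjusted p = 0.340). Zfp770 and Aqr, an RNA helicase of the spliceosome, were a similar case (parts, adjusted p = 0.667). An isoform of Zfp770 had 4.86, 5.26 and 1.89 CPM in BNLx and 0 in SHR (at least 34.1-fold lower, adjusted p = 0.102), Zfp770 as a whole changed by -0.06 ± 0.125, and Aqr had 46.8, 45.9 and 50.5 CPM in BNLx and 54.9, 60.7 and 58.0 in SHR (0.28 ± 0.0974, adjusted p = 0.394).

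Isoforms of 1 named gene differed among themselves in 5 of 211 named genes (2.37%). Isoforms of 1 unnamed part did so in 14 of 226 unnamed parts of joined loci (6.19%). The background of 3.63% covers named and unnamed parts of all loci together, so it matches neither share alone. The 5 named genes were Dcps, Topors, Isy1, Zfp317 and Emg1. Topors, a ubiquitin and SUMO ligase, had 3 ends on 1 exon chain (adjusted p = 0.000862). The isoform of 4392 bases had 0.0111, 0 and 0 CPM in BNLx and 2.15, 6.76 and 7.20 in SHR, and that of 4691 bases had 23.8, 19.8 and 19.7 CPM in BNLx and 17.3, 5.41 and 11.5 in SHR, without overlap in either case. Topors in total changed by -0.03 ± 0.120. Isy1, a splicing factor beside Cnbp, whose product binds nucleic acids (chr4:119721409-119756765, minus strand), had a named isoform at 4.32, 3.40 and 6.41 CPM in BNLx and 0.128, 0.000500 and 0.194 in SHR (test of its named isoforms, adjusted p = 0.00919). An unnamed isoform of Isy1 was at 0 in BNLx and had 7.70, 3.67 and 5.05 CPM in SHR (at least 27.7-fold higher, adjusted p = 0.0664). Isy1 as a whole changed by 0.14 ± 0.216 and Cnbp by -0.07 ± 0.185, and the test of parts gave an adjusted p of 0.261. Limma's diffSplice did not call Topors (adjusted p = 0.420) or Isy1 (0.369).

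Zfp317, a zinc finger gene in 1 locus with the olfactory receptor name Olr1159, had an isoform at 3.86, 7.24 and 2.74 CPM in BNLx and at 0 in SHR (at least 39.3-fold lower, adjusted p = 0.0870). The test over its isoforms gave an adjusted p of 0.0124, which was 0.0641 without SHR replicate 1, 0.0821 without SHR replicate 3 and 0.539 with limma. Emg1, a methyltransferase of ribosomal RNA next to neuronal enolase Eno2, had an isoform of 7251 bases with 32.5, 32.9 and 42.6 CPM in BNLx and 56.6, 54.6 and 47.3 in SHR. Its isoform of 1828 bases had 12.5, 12.6 and 9.10 CPM in BNLx and 6.03, 5.39 and 7.40 in SHR, so the longer end was higher and the shorter lower in SHR without overlap. That call (adjusted p = 0.0406) was lost without each library but BNLx replicate 3, with an adjusted p of up to 0.276. Eno2 changed by -0.20 ± 0.145.

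Among 2016 single isoforms tested, 25 passed an unadjusted p of 0.001, against a background of 1.0% of all isoforms. The level was higher in SHR for 12 and lower for 13, and 12 of the 25 passed an adjusted p of 0.05. They lay in 18 loci. Of the 25, 18 had no reference name, 6 ended at a site added by aptardi and 4 were joining isoforms. In 9 of them a strain was at 0 in all libraries, 4 in BNLx and 5 in SHR. A partner isoform of the same gene was found for 22, moving in the opposite direction for 13 and sharing both ends for 12. The sum over the gene was called for 6 of the 25.

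Lmnb2, encoding lamin B2, and Timm13, a mitochondrial import chaperone, were joined by isoforms that exchanged in this way (chr7:11565729-11678442, plus strand, with Gng7). A joining isoform had 16.2, 16.2 and 15.6 CPM in BNLx and 0 in SHR, at least 136-fold lower (adjusted p = 0.0146). Another, lacking 26 bases (chr7:11675527-11675552), was at 0 in BNLx and had 20.8, 6.12 and 17.6 CPM in SHR, at least 75.1-fold higher (adjusted p = 0.0771). All joining isoforms of the locus together had 19.0, 17.5 and 17.8 CPM in BNLx and 21.9, 17.5 and 18.7 in SHR, with overlap (0.09 ± 0.143). Near Lrrc24, a leucine-rich repeat protein gene joined to Zfp251, Arhgap39 and MGC94207, 2 unnamed isoforms that differ by 19 bases were both at 0 in SHR. These had 8.99, 13.0 and 8.11 CPM (at least 85.4-fold lower, adjusted p = 0.0321) and 23.9, 8.45 and 8.41 CPM (at least 116-fold lower, adjusted p = 0.0747) in BNLx. Named Lrrc24 had 0, 4.59 and 0 CPM in BNLx and 16.4, 23.5 and 23.5 in SHR (3.90 ± 1.60, adjusted p = 0.497), and the gene with its unnamed isoforms changed by -0.93 ± 0.262 (adjusted p = 0.278). Ube4a, a ubiquitin chain assembly factor next to the ATP synthase subunit gene Atp5mg, had a named isoform at 0 in BNLx and at 20.9, 7.64 and 10.9 CPM in SHR (at least 66.6-fold higher, adjusted p = 0.0619), while all named Ube4a isoforms changed by 0.11 ± 0.152.

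Locus totals rarely differed. Of 457 tested joined loci, 1 was called, against a background of 1.02% of all loci. It was the Arhgap6 locus, with 12.6, 8.46 and 9.32 CPM in BNLx and 41.0, 25.1 and 32.3 in SHR (1.69 ± 0.246, adjusted p = 0.0434), and the call was lost without each library in turn (0.0718 to 0.198). The totals of the Ptcd3 (-0.06 ± 0.116), Cnbp/Isy1 (-0.06 ± 0.184), Diras1 (-0.16 ± 0.129), Zfp770/Aqr (0.20 ± 0.0914) and Ormdl1/Osgepl1 (0.30 ± 0.118) loci did not pass. Of the loci with the most names, Nop56, a core protein of box C/D particles that hosts small RNA names, changed by -0.06 ± 0.136, and Rpl4, a ribosomal protein gene hosting small nucleolar RNAs, by -0.16 ± 0.164, beside Snapc5 at -0.11 ± 0.115.

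Gene families grouped by symbol, with unnamed isoforms added to their gene, had few calls. Medians of the log2 change follow, against -0.00 over all parts counted in this way. Of 23 zinc finger (Zfp) names 21 were tested and none was called (median -0.05), of 19 solute carriers (Slc) 18 were tested and none was called (0.02), and of 20 ubiquitin system names 17 were tested and none was called (0.09). None of 26 tested mitochondrial names of 28 was called (median -0.20). All 26 values were below 0, from -0.61 for Tomm5, a subunit of the outer membrane import pore, to -0.02. These values share the same libraries and are not independent, and the share of all parts below 0 was not taken. None of 12 tested ribosomal protein names of 13 was called (-0.15), none of 15 vesicle traffic names of 16 (-0.06) and none of 10 tested small RNA names of 135 (-0.09). Neighbours whose symbols share their first letters, 53 tested of 63, had 2 calls, RT1-T24-3 and Nat8f2, both higher in SHR (median 0.03). No protocadherin name was among the members. Vps52, a subunit of a tethering complex of the trans-Golgi network that encloses a U6 RNA name, had 63.5, 66.8 and 50.3 CPM in BNLx and 85.8, 91.2 and 93.2 in SHR, without overlap and without a call (0.58 ± 0.134, adjusted p = 0.175).

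Leaving out both libraries that stood apart raised the number of called parts to 204 of 1189 (96 higher and 108 lower in SHR), while the share over all parts of the series rose to 18.1%. All 12 parts called with 6 libraries kept their call (adjusted p from 0.00219 to 0.0211). Because that setting narrows the spread by its choice of libraries, the kept calls are not separate support. Without BNLx replicate 3 alone 7 of the 12 kept it, without SHR replicate 1 alone 6, and without BNLx replicate 1, BNLx replicate 2, SHR replicate 2 or SHR replicate 3 only 1, 2, 2 and 1. Without those last libraries, calls over all 17613 parts of the series also fell, from 199 to 38, 53, 23 and 27. The losses were thus not particular to these parts. The log2 changes of the 12 parts were 0.867 to 1.10 times those from all 6 libraries when single libraries were left out, and 0.841 to 1.12 times when both that stood apart were left out. Of 131 other tested parts in the described loci, 41 gained a call without both. Besides those given above they included Zfr2 (at 0 in SHR, adjusted p = 0.0149), St3gal4 (-0.54, adjusted p = 0.0384), Aqr (0.35, adjusted p = 0.0375), Eno2 (-0.35, adjusted p = 0.0276) and the joining isoforms with Poglut2 (1.73, adjusted p = 0.0353), Nop58 (0.50, adjusted p = 0.0451) and Ptms (1.32, adjusted p = 0.0178).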

How the data were processed

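Whole-brain polyA RNA of 3 BNLx and 3 SHR rats was sequenced from 1 ug of RNA per library as paired reads of 100 bases, with an unstranded TruSeq kit per the labels. The labels and the methods name different sequencer models. Which libraries shared a lane was not given in full, so lane and strain cannot be told apart. The authors trimmed reads (cutadapt), aligned them with HISAT2 to strain genomes made from rn6 and assembled transcripts with StringTie 1.3.5 on the Ensembl annotation. They then ran aptardi 1.0.0 for further polyadenylation sites and RSEM for abundances. The deposited values used are expected counts per isoform, not normalized, and TPM, scaled by the authors to transcript length and library. Deposited gene-level files were not used, since totals were summed from isoforms. No sample column was left unused (0).

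Isoforms were summed by part of a locus and rounded, and edgeR 4.0.16 was run under R 4.3.3 (TMM, quasi-likelihood test, strain as the only term), with diffSpliceDGE for differing changes, DESeq2 1.42.0 and limma 3.58.1 as alternatives. Parts, isoforms and loci needed at least 50 counts in 2 of the 3 libraries of a strain. Benjamini-Hochberg adjustment ran over the whole series. Calls used an adjusted p of 0.05 or less, and for isoforms an unadjusted p of 0.001. Errors of log2 changes are standard errors. CPM values depend slightly on whether parts or isoforms were fitted. A fold against a strain at 0 used 3 counts per library, is a lower bound and covers counting error only. The kit does not mark strand, so reads of genes that overlap on opposite strands cannot be told apart. The p-values measure the spread between rats of each strain.

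Named in the text are up to 10 called parts per direction without overlap and with at least 100 counts, 10 loci by the test of parts, 6 genes by the test of isoforms, 6 joining parts by p and 6 by share (at least 500 counts), 6 loci of earlier results, the 6 loci with the most names, and examples of symbol groups. Other genes, including Lmnb2, Lrrc24, Ube4a, Nat8f2, Agbl4, Card9 and Prdm2, were named after their values or gaps were seen. Members, lists and tests were chosen with earlier results of these data known. Scripts were tested on simulated data. Alternatives covered size factors, filters, the replicate block, libraries left out, treatment of unnamed and aptardi isoforms and the overlap that makes an isoform a joining one.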

Additional observations from a re-analysis of the deposited data

How the results depend on the processing

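Counts of calls moved with the libraries and the test. DESeq2 called 42 parts (21 higher, 21 lower), 74 isoforms and 5 locus totals (2 higher, 3 lower), against 12, 25 and 1 with edgeR. Over the whole series DESeq2 called 669 of 17613 parts, 1166 of 32348 isoforms and 550 of 14471 totals, against 199, 324 and 147 with edgeR. The rise was thus not particular to joined loci. RLE size factors gave the edgeR counts for joined loci. Leaving out single libraries gave 1 to 12 called parts, 9 to 33 loci with differing parts, 3 to 24 named genes with differing isoforms, 12 to 33 isoforms and 0 to 0 locus totals. The shares over the whole series moved as well. They were 0.131% to 1.14%, 2.02% to 5.70%, 2.31% to 6.62%, 0.566% to 1.24% and 0.0829% to 1.08% in the same order. Without both libraries that stood apart, 204 parts, 95 loci, 64 named genes, 77 isoforms and 145 totals (49 higher, 96 lower) were called, of 1189, 392, 211, 2016 and 457 tested, while over the whole series 18.1%, 19.96%, 21.6%, 2.92% and 28.8% were. Counting unnamed isoforms with their gene left 10 of 357 loci with differing parts (2.80%, against 2.56% of all loci counted in this way). Leaving out loci joined through small RNA names left 10 of 343 (2.92%), near the 2.9% of all loci with several parts. Testing unnamed isoforms with their gene, an alternative chosen after the data were seen, gave 22 of 470 genes (4.68%, against 4.23% of genes in all loci). Joining isoforms took 2.14% of counts with an overlap of 100 bases, against 2.38%.

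The replicate numbers did not pair the samples, since same-numbered deviations correlated by -0.03, 0.22 and -0.17. As a hint from the data and not the design, the fit with the replicate block called 0 parts, 3 isoforms and 0 locus totals. It called 11 loci with differing parts and 7 named genes with differing isoforms. Over the whole series that fit called 2 of 17613 parts, 48 of 32348 isoforms and 0 of 14471 totals. It also called 58 of 2720 loci with differing parts and 259 of 7402 parts with differing isoforms. The drop in parts, isoforms and totals was thus not particular to joined loci.

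Dcps reversed to -1.31 with original isoforms alone, where by construction the longer end is not counted. The Cnbp/Isy1 total, near 0 throughout, ranged from -0.23 to 0.026 when single libraries were left out and changed sign without BNLx replicate 1, SHR replicate 2 or SHR replicate 3 (0.0091, 0.026 and 0.021). Among checks of single named results, 335 kept their direction and their status, 103 lost the call, 8 gained it and these 4 reversed. The 335 include results that were not called with all libraries and stayed uncalled. Apart from what is stated, the cause was not tested. Depth of 11747048 counts in the smallest library and 3 rats per strain limit what low isoforms can show.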

Other observations

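Several loci held values outside the comparisons. Vps52 and its U6 RNA neighbour lay in a span that crosses the RT1-A2/RT1-A1 locus on the opposite strand, and unnamed isoforms near 1 gene of that locus had 0.526, 0 and 0 CPM in BNLx and 7.25, 3.09 and 4.84 in SHR (4.42 ± 1.07, edgeR, adjusted p = 0.195). In the locus of Armcx5, Gprasp2 and Bhlhb9 on chromosome X, named Gprasp2 isoforms had 92.7, 93.9 and 154 CPM in BNLx and 79.8, 5.15 and 38.2 in SHR (-1.46 ± 0.847, edgeR, adjusted p = 0.643), while Bhlhb9 had 33.3 to 42.0 CPM in all 6 libraries. Phyhd1, beside the volume-regulated channel subunit gene Lrrc8a, had an unnamed isoform of 6464 bases with 6.92, 9.46 and 7.43 CPM in BNLx and 18.8, 19.5 and 20.5 in SHR (1.304 ± 0.198, edgeR, adjusted p = 0.0811). These loci were named after their values were seen.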
